A study of Homo sapiens with 6 samples.

Results

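The genes described here are 9 components of the MHC class I pathway: the heavy chains HLA-B, HLA-C and HLA-E, the light chain B2M, the peptide transporter subunits TAP1 and TAP2, the loading factor tapasin (TAPBP), and the inducible proteasome subunits PSMB8 and PSMB9. They were chosen by symbol from a table of 27672 genes. All 9 passed the filter on low counts and were among the 15517 genes that were then tested.

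RNA-seq of polyadenylated RNA was carried out in the human embryonic stem cell (hESC) line H9, with 3 libraries of undifferentiated hESCs (day 0) and 3 libraries of neuromesodermal progenitor-like (NMP-L) cells (day 3). By the labels, the hESCs were kept without feeder cells on fibronectin in DEF medium with bFGF at 30 ng/ml and Noggin at 10 ng/ml. The methods of the study instead name TESR medium and Geltrex for H9 hESCs. Which of them these libraries had is not known. NMP-L cells were made from the same line over 3 days in N2/B27 medium with bFGF at 20 ng/ml and CHIR99021, an inhibitor of GSK3 that activates Wnt signalling, at 3 µM. Both groups come from 1 unmodified line, so the spread between libraries, which the labels call biological replicates, is that of cultures and not of donors. By the labels, medium, Noggin, bFGF dose and CHIR99021 all differ between the groups, and their parts cannot be told apart. The methods of the study also describe Noggin and SB431542, a TGF-beta inhibitor, added from the day before NMP-L cells are taken. Noggin is not listed for day 3 in the labels, and whether these libraries had either inhibitor is not known.

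MHC class I molecules show peptides from inside the cell to cytotoxic T cells at the cell surface. Proteasomes cut proteins into peptides, the TAP1 and TAP2 transporter carries these into the endoplasmic reticulum, and tapasin holds the transporter next to the empty heavy chain and B2M pair until a peptide is bound. Interferons raise most genes of the pathway, and pluripotent stem cells are known for low surface class I. HLA-B and HLA-C are classical heavy chains that present varied peptides, whereas HLA-E mainly presents signal peptides of other class I chains to receptors of natural killer (NK) cells.

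The bases upstream of 6 of these genes are shown because the heavy chains that moved in opposite directions carry closely placed copies of the same short elements, and because the divergent pair TAP1 and PSMB9 starts from neighbouring sites. Each window holds the 250 bases before the canonical transcript start in GRCh37 (hg19) and is written 5′ to 3′ on the strand of the gene. Capitals mark matches, on either strand, to 5 patterns: the X2 box core TGACG, the CCAAT box CCAAT, the interferon gamma activated sequence TTCNNNGAA, the core of the interferon-stimulated response element (GAAA, a gap of any 2 bases, then GAAA), and a kappa B pattern (GGG, a gap of any 5 bases, then a pair of C). The windows are chr6:31324957-31325206 (minus strand) for HLA-B, chr6:31239870-31240119 (minus) for HLA-C, chr6:30457036-30457285 (plus) for HLA-E, chr15:45003465-45003714 (plus) for B2M, chr6:32821482-32821731 (minus) for TAP1 and chr6:32821719-32821968 (plus) for PSMB9.
HLA-B: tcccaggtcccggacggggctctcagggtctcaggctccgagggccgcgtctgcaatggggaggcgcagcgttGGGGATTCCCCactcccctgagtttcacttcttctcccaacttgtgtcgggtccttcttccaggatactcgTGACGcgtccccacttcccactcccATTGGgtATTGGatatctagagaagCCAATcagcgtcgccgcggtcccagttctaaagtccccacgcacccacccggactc
HLA-C: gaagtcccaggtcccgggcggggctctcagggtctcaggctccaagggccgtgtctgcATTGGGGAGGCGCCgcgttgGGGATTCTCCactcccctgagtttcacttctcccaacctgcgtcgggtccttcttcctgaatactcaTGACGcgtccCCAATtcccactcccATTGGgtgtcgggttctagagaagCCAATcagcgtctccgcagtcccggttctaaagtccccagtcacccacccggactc
HLA-E: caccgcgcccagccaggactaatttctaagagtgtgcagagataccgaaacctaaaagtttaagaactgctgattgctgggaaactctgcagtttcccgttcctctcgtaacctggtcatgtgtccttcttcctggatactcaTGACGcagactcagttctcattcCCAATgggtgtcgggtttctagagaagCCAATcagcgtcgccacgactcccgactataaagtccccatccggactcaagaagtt
B2M: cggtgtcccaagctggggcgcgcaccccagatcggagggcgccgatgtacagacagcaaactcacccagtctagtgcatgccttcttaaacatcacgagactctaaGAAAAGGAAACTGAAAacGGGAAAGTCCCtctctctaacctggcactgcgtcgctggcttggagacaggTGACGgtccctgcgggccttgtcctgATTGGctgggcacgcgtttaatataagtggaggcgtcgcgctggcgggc
TAP1: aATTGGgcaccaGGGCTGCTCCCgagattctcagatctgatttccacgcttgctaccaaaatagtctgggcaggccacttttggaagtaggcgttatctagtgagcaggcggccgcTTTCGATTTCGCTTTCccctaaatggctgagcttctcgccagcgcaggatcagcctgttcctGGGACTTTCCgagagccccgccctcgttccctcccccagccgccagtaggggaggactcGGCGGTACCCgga
PSMB9: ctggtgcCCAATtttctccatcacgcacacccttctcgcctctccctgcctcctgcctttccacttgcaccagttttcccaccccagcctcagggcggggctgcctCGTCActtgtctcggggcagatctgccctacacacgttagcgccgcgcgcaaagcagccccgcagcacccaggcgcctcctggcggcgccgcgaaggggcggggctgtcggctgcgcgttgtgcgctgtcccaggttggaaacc

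The X2 core began at -106 in HLA-B, at -105 in HLA-C and at -107 in HLA-E, counted back from the transcript start, so that its place was almost the same in the 3 heavy chains. In B2M it began at -75. Over the 9 members it was found in 6 windows (HLA-B, HLA-C, HLA-E, B2M, TAP2 and PSMB9), against 28.5% of the 15097 windows of tested genes. The 3 heavy chain genes are near copies of each other, so their matches, here and for the CCAAT box, are not independent. The CCAAT box was found in 6 members (HLA-B, HLA-C, HLA-E, B2M, TAP1 and PSMB9) and in 33.7% of all windows. The windows of TAP1 and PSMB9 share 13 bases, and their CCAAT match is 1 site (chr6:32821726-32821730) read on opposite strands, so these 6 windows do not count as independent. The interferon-stimulated response element core, the least common of the 5 patterns at 2.36% of all windows, was found in 4 members (B2M, TAP1, TAP2 and TAPBP), and the matches in B2M, TAP1 and TAPBP were overlapping pairs. The interferon gamma activated sequence was found in PSMB8 alone among the members and in 4.93% of windows. The kappa B pattern is loose, with 72.2% of windows holding it and 6 members among them (HLA-B, HLA-C, B2M, TAP1, TAP2 and TAPBP). In HLA-C a kappa B match and a CCAAT match share 1 base, at -188. In the HLA-E window the letters of the kappa B and response element patterns are not present. These are matches of letters, and no factor was measured on them. A strict pattern misses elements spelled with other letters. Windows without a match to the response element core, such as those of HLA-B, HLA-C and HLA-E, may still hold one.

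Transcripts of the 9 genes did not move as a unit between hESCs and NMP-L cells. HLA-B fell 4.07-fold in NMP-L cells, PSMB9 2.60-fold and HLA-C 1.85-fold, TAP2 fell by 0.58 on the log2 scale, and HLA-E rose 1.51-fold, whereas B2M, TAP1, TAPBP and PSMB8 did not pass the test (edgeR quasi-likelihood test, n = 3 per group, Benjamini-Hochberg adjustment over all tested genes). The count was thus 5 of 9 members that differed, beside 55.8% of all tested genes. In direction, 1 member was higher in NMP-L cells, beside 29.1% of all tested genes, and 4 were lower, beside 26.7%. The median log2 fold change of the members was -0.34, and that of all tested genes 0.03. In bulk RNA, fewer cells of a type and less RNA per cell cannot be told apart.

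The classical heavy chain HLA-B (chr6:31321649-31334844, minus strand) showed the largest change of the 9. Its level in CPM (counts per 1000000 after TMM scaling) was 35.1, 38.7 and 38.0 in day 0 libraries, against 9.46, 9.79 and 8.23 in day 3 libraries. All NMP-L libraries were below all hESC libraries, with a log2 fold change of -2.03 (SE 0.11, adjusted p = 5.6e-08). HLA-C (chr6:31236526-31239907, minus strand), also classical, stood at 169, 201 and 191 CPM in hESCs and at 103, 109 and 91.1 CPM in NMP-L cells. The groups again did not overlap, but the fall was smaller, at -0.89 on the log2 scale (SE 0.10, adjusted p = 1.2e-05).

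HLA-E (chr6:30457286-30461971, plus strand), the ligand of inhibitory NK receptors, moved the other way. It measured 50.7, 50.04 and 57.2 CPM in hESCs and 78.8, 83.3 and 76.8 CPM in NMP-L cells. Every NMP-L library was above every hESC library, and the log2 fold change was 0.60 (SE 0.09, adjusted p = 1.4e-04).

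B2M (chr15:45003556-45011049, plus strand), the light chain shared by all class I molecules and the one member outside chromosome 6, stood at 93.4, 85.3 and 82.7 CPM in hESCs and at 74.3, 84.2 and 80.8 CPM in NMP-L cells. The groups overlapped, and the log2 difference of -0.13 (SE 0.09) did not pass the test (adjusted p = 0.23). The B2M transcript has 39.1% G and C bases, the lowest of the members, which otherwise lie between 48.9% and 60.1%. With each library corrected for GC content and transcript length, its log2 difference became -0.32 and passed the test (edgeR, adjusted p = 1.5e-04). That correction called 10102 of the 15517 tested genes, beside 8653 without it.

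**Figure D1:**
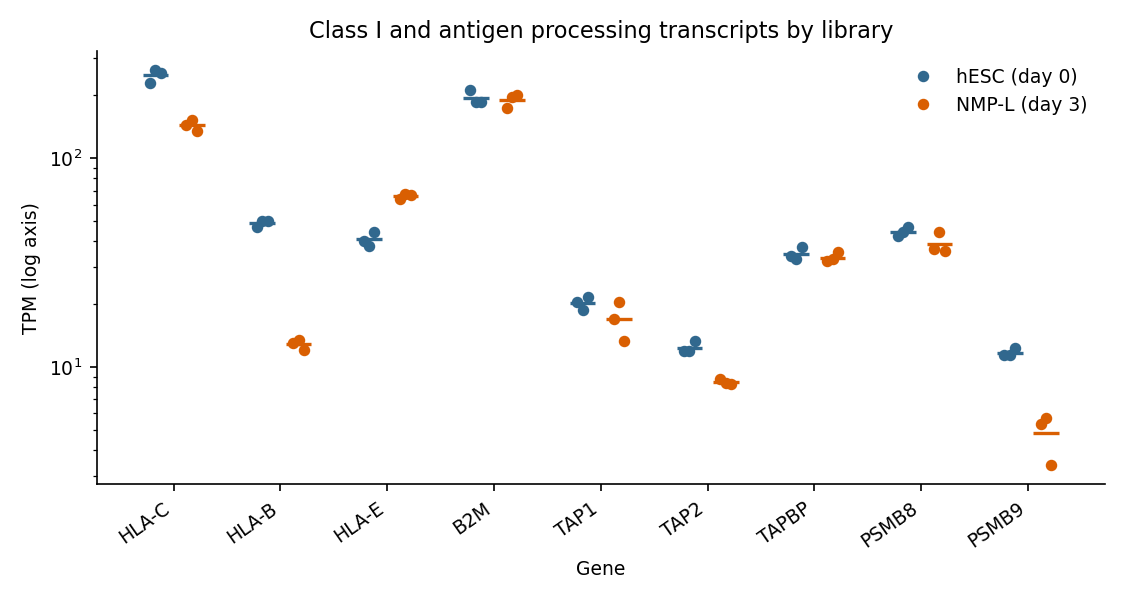
TPM (transcripts per 1000000 transcripts, log axis) of the 9 genes, with 1 point per library (3 hESC in blue, 3 NMP-L in orange) and a bar at each mean. HLA-B drops from 48.9 to 12.8 TPM and HLA-E rises from 40.8 to 66.0 TPM, while the B2M libraries of both groups overlap.

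Of the transporter subunits, TAP2 (chr6:32789610-32806516, minus strand) was at 30.2, 31.9 and 33.4 CPM in hESCs and at 20.8, 21.9 and 21.1 CPM in NMP-L cells. The groups were separate and the log2 fold change was -0.58 (SE 0.10, adjusted p = 3.1e-04). Its partner TAP1 (chr6:32812986-32821593, minus strand) was at 24.0, 22.4 and 25.5 CPM in hESCs and at 19.4, 23.2 and 14.1 CPM in NMP-L cells. NMP-L replicate 2 lay within the hESC range and NMP-L replicate 3 far below it, so the groups overlapped, and the log2 difference of -0.34 (SE 0.16) did not pass the test (adjusted p = 0.082). Without NMP-L replicate 2 it was -0.51 (adjusted p = 0.019), without NMP-L replicate 3 it was -0.17 (adjusted p = 0.28), and the DESeq2 Wald test over all 6 libraries gave an adjusted p of 0.043. The TPM ratio of TAP1 to TAP2 was 1.72, 1.59 and 1.62 in hESCs and 1.95, 2.46 and 1.6 in NMP-L cells, with overlap.

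Tapasin (TAPBP, chr6:33267471-33282061, minus strand) measured 59.7, 61.7 and 67.3 CPM in hESCs and 56.2, 56.8 and 57.1 CPM in NMP-L cells. Every NMP-L library was below every hESC library, but by little, and the log2 difference of -0.15 (SE 0.08) did not pass the test (adjusted p = 0.15). With TAPBP, 6 of the 9 members had no overlap between groups, beside 61.6% of all tested genes, and 3 overlapped (B2M, TAP1 and PSMB8). An exact permutation test of 3 against 3 libraries cannot go below 0.1, which each of those 6 reached.

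PSMB9 and PSMB8 encode catalytic subunits that replace PSMB6 and PSMB5 in the immunoproteasome. PSMB9 (chr6:32811913-32827628, plus strand) was the scarcest member, with counts of 101, 108 and 113 at day 0 and of 54, 55 and 35 at day 3, or 5.39, 5.56 and 5.90 CPM against 2.42, 2.62 and 1.46 CPM. The groups did not overlap, and NMP-L replicate 3 was the lowest library, as for TAP1. The log2 fold change was -1.38 (SE 0.21, adjusted p = 1.8e-04). PSMB8 (chr6:32808494-32812456, minus strand) was at 22.1, 23.8 and 24.9 CPM in hESCs and at 18.9, 22.5 and 17.2 CPM in NMP-L cells. The groups overlapped through NMP-L replicate 2, and the log2 difference of -0.27 (SE 0.12) did not pass the test (adjusted p = 0.073). It passed without NMP-L replicate 2 (-0.38, adjusted p = 0.026), without hESC replicate 1 (-0.35, adjusted p = 0.035) and with the GC and length correction (-0.25, adjusted p = 0.035, all edgeR).

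**Figure D2:**
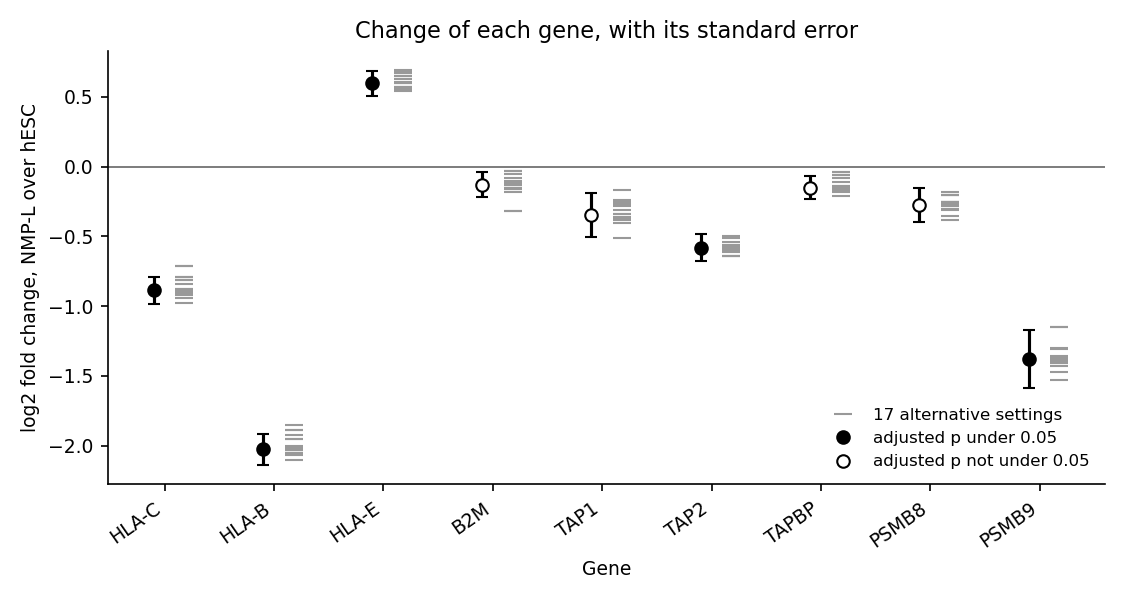
Log2 fold change of each gene, NMP-L over hESC, with its standard error (edgeR, n = 3 per group), filled where the adjusted p was under 0.05, and with a short grey line for each of 17 alternative settings. HLA-B at -2.03 and PSMB9 at -1.38 lie farthest below 0, HLA-E at 0.60 is the one gene above it, and the estimate for B2M reaches -0.32 under the GC and length correction.

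TAP1, PSMB8 and PSMB9 lie together, and in GENCODE release 44 the model of PSMB9 overlaps those of TAP1 and PSMB8 on the opposite strand. The canonical starts of TAP1 and PSMB9 are 487 bases apart and point away from each other, and the antisense RNA PSMB8-AS1, which overlaps all 3 genes, had between 12 and 23 counts in each library. Whether the counting used strand, and which gene models it used, is not given in the sources used here. If strand was not used, reads in any overlaps cannot be told apart. The neighbours nevertheless had different estimates, from -1.38 for PSMB9 to -0.34 for TAP1 and -0.27 for PSMB8, and the differences among them were not tested.

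Levels of different genes were compared in TPM, which is per transcript length. In hESCs the order was HLA-C (249 ± 17.9 TPM, SD, n = 3), B2M (195 ± 15.1), HLA-B (48.9 ± 1.83), PSMB8 (44.6 ± 2.07), HLA-E (40.8 ± 3.38), TAPBP (34.9 ± 2.49), TAP1 (20.3 ± 1.41), TAP2 (12.4 ± 0.82) and PSMB9 (11.7 ± 0.56). PSMB8 and HLA-E overlapped there, as did TAP2 and PSMB9. In NMP-L cells the order was B2M (191 ± 14.5 TPM, SD, n = 3), HLA-C (144 ± 8.27), HLA-E (66.0 ± 1.77), PSMB8 (38.9 ± 4.58), TAPBP (33.5 ± 1.75), TAP1 (16.97 ± 3.66), HLA-B (12.8 ± 0.73), TAP2 (8.46 ± 0.23) and PSMB9 (4.82 ± 1.24). Only TAP1 and HLA-B were neighbours with overlapping libraries. HLA-B thus moved from the third place to the seventh, HLA-E from the fifth to the third, and B2M and HLA-C changed places at the top.

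The TPM ratio of HLA-E to HLA-B was 0.853, 0.762 and 0.888 in the hESC libraries, against 4.91, 5.02 and 5.51 in NMP-L cells. HLA-E was therefore below HLA-B in every hESC library and several-fold above it in every NMP-L library. The ratio of HLA-C to HLA-B was 5.09 ± 0.193 in hESCs and 11.2 ± 0.0962 in NMP-L cells (SD, n = 3).

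Heavy chain genes are near copies of each other, and RSEM divides reads that match more than 1 gene, so counts of HLA-B, HLA-C and HLA-E were fractional in 6 of 6 libraries. Counts of TAP1 and TAP2 were fractional in 2 libraries each, hESC replicate 1 (449.59 and 565.41) and NMP-L replicate 3 (337.56 and 505.44), the second of which is the low TAP1 library, and the part of read division in that low value was not tested. Of all stretches of 76 bases (the read length) in the reference transcript, 0% of those of HLA-B, 1.91% of those of HLA-C and 2.18% of those of HLA-E occurred unchanged in another gene of the table. For TAP1 and TAP2 these shares were 0.19% and 0.09%. In NMP-L replicate 3, TAP2 was at 21.1 CPM, beside 20.8 and 21.9 CPM in NMP-L replicates 1 and 2. The alleles of the H9 line may differ from the reference and were not compared. A sum over HLA-B, HLA-C and HLA-E with HLA-F and HLA-G does not depend on how reads were divided among those 5. It came to 259, 294 and 292 CPM in hESCs and to 192, 202 and 177 CPM in NMP-L cells. The sums did not overlap, with a log2 difference of -0.57 (exact permutation test, two-sided, p = 0.1, the smallest possible), and the edgeR fit of the summed row gave the same value (SE 0.08, adjusted p = 1.4e-04).

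The makeup of that sum also differed between the groups. HLA-B was 13.5%, 13.2% and 13.0% of the summed counts of the 5 genes in the hESC libraries, against 4.93%, 4.84% and 4.66% in NMP-L cells. HLA-E was 19.5%, 17.02% and 19.6% in hESCs and 41.0%, 41.2% and 43.5% in NMP-L cells. HLA-C was 65.1%, 68.4% and 65.5% in hESCs and 53.9%, 53.7% and 51.6% in NMP-L cells, and it remained the main part of the sum in both groups. The TPM ratio of B2M to the 5 summed chains was 0.656, 0.523 and 0.517 in hESCs and 0.782, 0.842 and 0.936 in NMP-L cells, so that every NMP-L library had more B2M transcript per transcript of these chains than every hESC library.

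**Figure D3:**
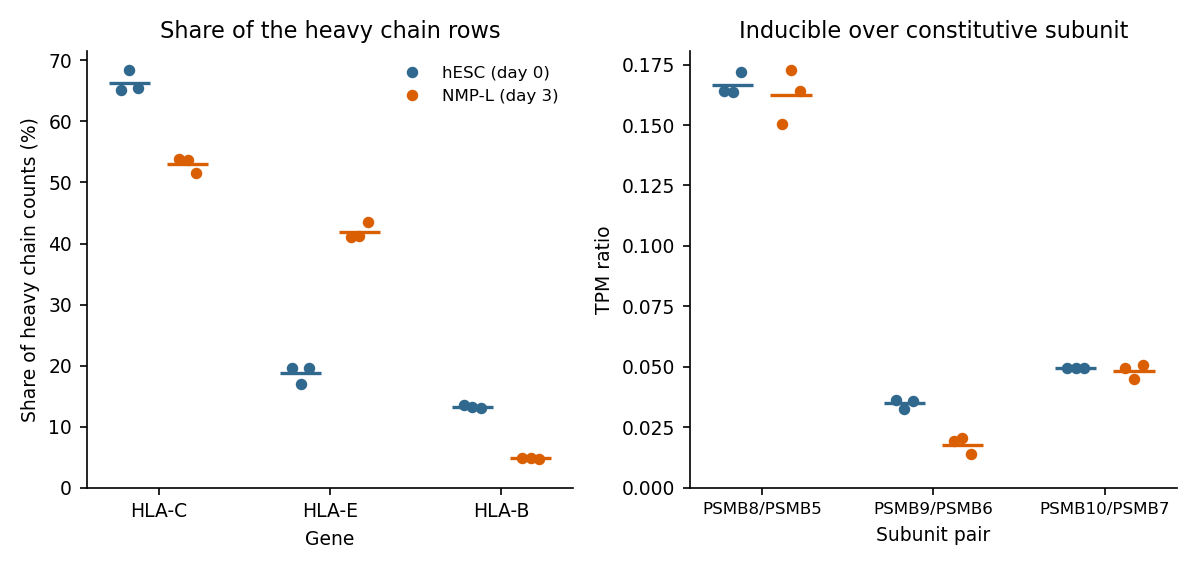
Left, percent of the summed counts of HLA-B, HLA-C, HLA-E, HLA-F and HLA-G held by HLA-C, HLA-E and HLA-B in each library, where the mean share of HLA-E is 18.7% in hESCs and 41.9% in NMP-L cells and that of HLA-B is 13.2% and 4.81%. Right, TPM ratio of each inducible proteasome subunit to the constitutive subunit it replaces, where points are libraries (hESC blue, NMP-L orange), bars are means, and PSMB9/PSMB6 is the pair whose groups do not overlap.

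The counts of the lists that follow stand beside 55.8% of all tested genes called, 29.1% higher and 26.7% lower, and a median of 0.03. In the heavy chain list, HLA-F and HLA-G passed the filter on low counts only through the hESC libraries and so had to differ. The other 3, never under 10 counts, are the member chains, of which 2 fell and 1 rose, with a median log2 fold change of -0.89. HLA-F counts were 44, 43 and 56 at day 0, against 6, 7 and 10 at day 3 (log2 fold change -2.85, SE 0.29, adjusted p = 8e-06). For HLA-G, known from trophoblast, they were 46.17, 38.25 and 47.59 at day 0, against 2.02, 4.03 and 2.09 at day 3 (-4.20, SE 0.37, adjusted p = 2.2e-06). Both are scarce transcripts, at 4.07 and 3.10 TPM in hESCs.

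The inducible subunits were set against the constitutive subunits whose places they take. The TPM ratio of PSMB9 to PSMB6 was 0.0362, 0.0324 and 0.0361 in hESCs and 0.0192, 0.0205 and 0.0139 in NMP-L cells. The groups did not overlap, and the mean log2 difference was -0.98 (exact permutation test, two-sided, p = 0.1, the smallest possible, adjusted over the 3 ratios p = 0.3). PSMB8 to PSMB5 was 0.167 ± 0.00473 in hESCs and 0.162 ± 0.0114 in NMP-L cells (SD, n = 3, exact p = 0.8, adjusted p = 0.9). PSMB10 to PSMB7 was 0.0495 ± 0.000116 and 0.0484 ± 0.00304 (exact p = 0.9, adjusted p = 0.9). The groups overlapped in these other pairs, and in both groups the constitutive subunit was the far more abundant one.

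Of the 7 genes of the immunoproteasome and its activator, 2 rose, 2 fell and 3 did not pass the test, with a median of -0.20. PSME1 and PSME2, which together form the PA28 activator ring, differed in sign. PSME1 fell by 0.54 on the log2 scale (SE 0.09, adjusted p = 5.2e-04), and PSME2 rose by 0.25 (SE 0.10, adjusted p = 0.048), a call lost in 8 of 17 alternatives, among them without hESC replicate 1 or 3 or NMP-L replicate 1 or 2 (edgeR, adjusted p from 0.12 to 0.21). PSME3, of a nuclear activator, was the other gene that rose (0.21, adjusted p = 0.028), a call lost in 7 of 17, without the same libraries too (edgeR, adjusted p from 0.061 to 0.13). Without NMP-L replicate 1 the list held 2 called genes, both lower, and with upper-quartile scaling 3, all lower. Over all tested genes, upper-quartile scaling gave 4227 higher and 4358 lower. PSMB10, the remaining inducible subunit, differed by 0.16 (adjusted p = 0.30). It passed as higher in 4 of 17 alternatives, among them the GC and length correction (0.39, edgeR adjusted p = 0.0076). Of the 14 genes of the constitutive core particle, 2 rose, 3 fell and 9 did not pass, with a median of -0.07. PSMA1 rose by 0.36 (SE 0.08, adjusted p = 0.002), and PSMB2 by 0.27 (adjusted p = 0.026), a call lost in 8 of 17 alternatives, among them without hESC replicate 1 or 3 or NMP-L replicate 1 or 2 (edgeR, adjusted p from 0.064 to 0.11). PSMB6 fell by 0.43 (adjusted p = 0.0027), PSMA2 by 0.42 (adjusted p = 8e-04) and PSMB5 by 0.25 (adjusted p = 0.040, lost in 8 of 17 alternatives, among them without hESC replicate 2 or 3 or NMP-L replicate 1 or 3). Without hESC replicate 3 or NMP-L replicate 1, 3 of the core genes passed, 1 higher and 2 lower, and with scaling by library size alone 3 were higher and 2 lower. The split was 5 higher and 2 lower with limma on log2 TPM, and 2 higher and 7 lower with the GC and length correction. Over all tested genes, library size alone gave 5314 higher and 3597 lower, and limma on log2(TPM + 0.1) 5316 and 3405. The GC and length correction gave 4995 and 5107, beside 4512 and 4141 without these changes.

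Of the 12 genes of peptide loading and trimming, 11 were tested, and 4 rose, 3 fell and 4 did not pass the test, with a median of -0.13. Among those that rose were the chaperones of the endoplasmic reticulum CANX, which holds new heavy chains (log2 fold change 0.38, SE 0.09, adjusted p = 0.0037), and HSPA5 (0.49, SE 0.07, adjusted p = 1.5e-04). The chaperone of the loading complex CALR fell by 0.37 (SE 0.08, adjusted p = 0.0019), and its partner PDIA3 differed by -0.10 (adjusted p = 0.21). TAPBPL, a tapasin relative that edits peptides, rose by 0.87 from a low level (1.21 to 2.33 TPM, adjusted p = 0.016), but the call was lost without hESC replicate 1 (0.67, adjusted p = 0.065), hESC replicate 3 (0.87, adjusted p = 0.051) or NMP-L replicate 1 (0.75, adjusted p = 0.058). ERAP1, which trims peptides to length, rose by 0.29 (adjusted p = 0.044), a call lost in 10 of 17 alternatives, among them without hESC replicate 2 or 3 or any NMP-L library (edgeR, adjusted p from 0.073 to 0.15). Without NMP-L replicate 1 the list held 4 called genes, 2 higher and 2 lower. ERAP2, which also trims them, was too low to be tested, with counts of 8, 8 and 7 at day 0, against 2, 1 and 1 at day 3.

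**Figure D4:**
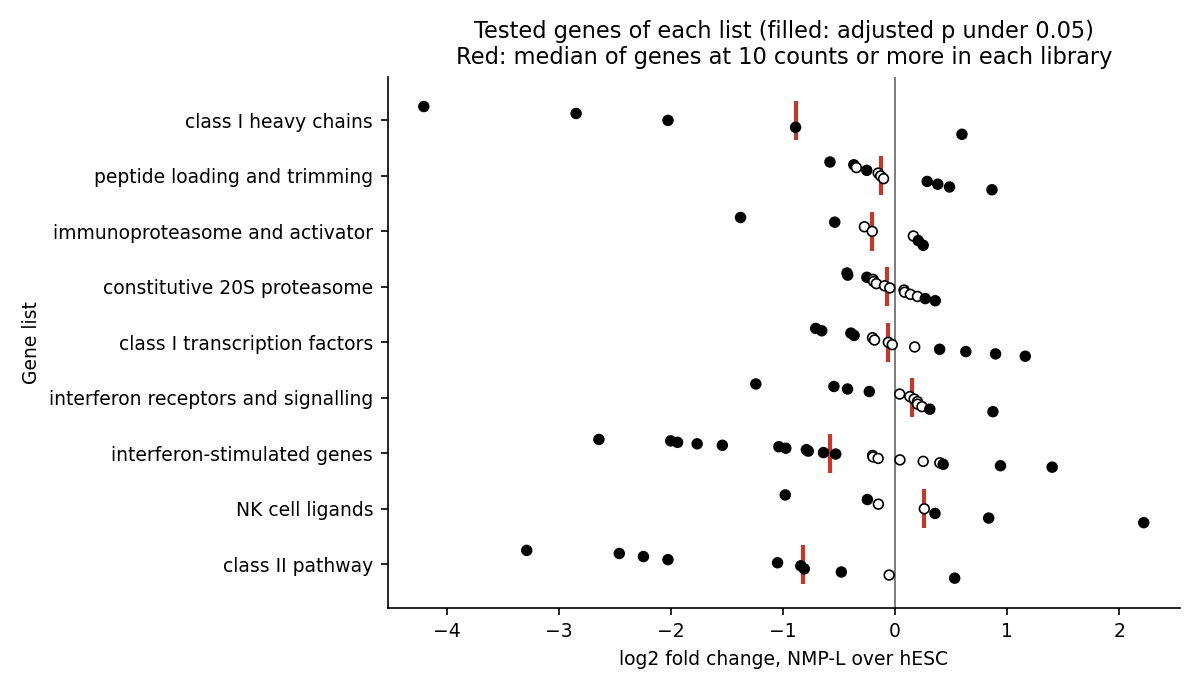
Log2 fold change, NMP-L over hESC, of every tested gene in 9 gene lists (1 point per gene, filled where the edgeR adjusted p was under 0.05), with a red line at the median. The median is over the genes at 10 counts or more throughout the 6 libraries, which leaves out HLA-F, HLA-G, HLA-DRA, HLA-DMB, SAMD9 and IFIT3. It is -0.89 for the heavy chains (3 genes), -0.83 for the class II pathway (8) and -0.58 for the interferon-stimulated genes (18), beside 0.03 for all tested genes.

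Of 13 transcription factors known to act on class I promoters, 4 rose, 4 fell and 5 did not pass the test, with a median of -0.06. The 8 called are near the 55.8% of all tested genes. NLRC5, the class I transactivator, was at 2.78, 2.26 and 2.09 CPM in hESCs and at 5.39, 6.49 and 4.14 CPM in NMP-L cells. Every NMP-L library was higher (log2 fold change 1.16, SE 0.21, adjusted p = 5.9e-04), at a low level throughout (0.71 to 1.70 TPM). RFX5, part of the complex that NLRC5 joins at the X box, fell by 0.36 (adjusted p = 0.0076). Its partners in that complex, named after their values were seen, went other ways: RFXAP rose by 0.63 (SE 0.15, adjusted p = 0.004) and RFXANK differed by -0.02 (adjusted p = 0.89). IRF1, which binds the interferon-stimulated response element, fell by 0.65 (SE 0.17, adjusted p = 0.006), and IRF2 differed by -0.20 (adjusted p = 0.15). The kappa B factors differed in sign, with NFKB1 up by 0.90 (adjusted p = 6.9e-05) and RELA, which fell by 0.71 (adjusted p = 2.6e-04).

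Of 12 interferon receptor and signalling genes, 2 rose, 4 fell and 6 did not pass the test, with a median of 0.15. The split turned with scaling by library size alone, to 5 higher and 2 lower. Over all tested genes that scaling gave 5314 higher and 3597 lower, against 4512 and 4141 with TMM scaling. The kinase JAK2, which acts below the interferon gamma receptor, rose by 0.87 (adjusted p = 5e-04). SOCS1, an inhibitor of JAK kinases, fell by 1.24 (SE 0.12, adjusted p = 3.9e-06), and SOCS3 by 0.55 (adjusted p = 0.029, lost in 8 of 17 alternatives). IFNGR2, a subunit of the interferon gamma receptor, fell by 0.42 (SE 0.09, adjusted p = 0.0021). Without hESC replicate 3 or NMP-L replicate 2 the list held 3 called genes, 1 higher and 2 lower, and 4 without NMP-L replicate 1 or 3.

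Of 30 interferon-stimulated genes, 20 were tested, and 3 rose, 11 fell and 6 did not pass the test, beside 29.1% higher and 26.7% lower over all tested genes. SAMD9 passed the filter only through the hESC libraries. Of the 18 genes at 10 counts or more throughout the 6 libraries, 3 rose and 10 fell, with a median of -0.58. IFITM1, a membrane protein that restricts virus entry, was the most abundant of those named, with 612, 646 and 630 CPM in hESCs and 164, 166 and 142 CPM in NMP-L cells (-2.0, SE 0.08, adjusted p = 5.3e-09). IFI6 fell by 1.94 (adjusted p = 2.4e-06), ISG20 by 1.77 (adjusted p = 1.1e-04), and SAMD9 by 2.64 from 21, 25 and 20 counts to 5, 6 and 1 counts (adjusted p = 3.8e-04). The 3 that rose were IFI35 (1.40), MX1 (0.94) and BST2 (0.43), named after their values were seen.

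Ligands of NK cell receptors and related surface signals were also divided. Of 9 genes, 7 were tested, and 3 rose, 2 fell and 2 did not pass the test, with a median of 0.26. ULBP1, a ligand of the activating receptor NKG2D, rose by 2.22 (SE 0.21, adjusted p = 4.1e-06), with 0.958, 1.69 and 1.40 CPM in hESCs and 6.14, 5.87 and 7.002 CPM in NMP-L cells. CD47, a signal that holds back phagocytosis, rose by 0.84 (adjusted p = 1.8e-04), and ULBP3 by 0.36 (adjusted p = 0.048, lost in 13 of 17 alternatives). Leaving out any library other than hESC replicate 1 left 3 called genes, 2 higher and 1 lower, and scaling by library size alone gave 4 higher and 1 lower. That scaling gave 5314 higher and 3597 lower over all tested genes. NECTIN2, a ligand of DNAM-1, fell by 0.98 (SE 0.09, adjusted p = 3.1e-06).

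Class II pathway genes, most of which lie in the same region, serve presentation by specialised immune cells. They numbered 13, of which 10 were tested. Of these, 8 fell, 1 rose and 1 did not pass the test, beside 26.7% lower and 29.1% higher over all tested genes. HLA-DRA and HLA-DMB passed the filter only through the hESC libraries. Of the 8 genes at 10 counts or more throughout the 6 libraries, 6 fell and 1 rose, with a median of -0.83. The class II chaperone CD74 stood at 48.2, 58.2 and 52.9 CPM in hESCs and at 10.9, 11.2 and 11.5 CPM in NMP-L cells (-2.24, SE 0.11, adjusted p = 1.7e-08). HLA-DRA fell by 3.29, HLA-DMB by 2.46 and HLA-DOA by 2.03 (adjusted p = 7.7e-07, 1.6e-04 and 3.2e-08, edgeR). HLA-DQB1 was the gene that rose (0.53, adjusted p = 0.0064), named after its value was seen. The class II transactivator CIITA was at or under the floor of 3 counts in every library.

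Beside these lists, 7 leukocyte markers summed to between 4.17 and 5.02 CPM in the hESC libraries, against between 4.39 and 6.82 CPM in the NMP-L libraries. The markers PTPRC, CD14, CD3E and LYZ were at or under 3 counts in every library. CSF1R, not tested, had 2, 2 and 0 counts in hESCs and 11, 1 and 2 in NMP-L cells. Of the 2 leukocyte markers tested, CD68 rose by 1.04 and ITGAM did not pass (-0.20, edgeR adjusted p = 0.49). Fibroblast markers summed to between 1330 and 1498 CPM in hESCs and to between 215 and 231 CPM in NMP-L cells, carried by COL1A1 (-3.61), THY1 (-2.29) and COL1A2 (-1.26), with DCN and LUM at or under 3 counts throughout. PDGFRB, the remaining marker of that list, did not pass (-0.17, edgeR adjusted p = 0.44). Endothelial markers summed to between 440 and 457 CPM and to between 118 and 136 CPM, nearly all of it KDR (-1.95) and TEK (-1.13). The other markers of that list were nearly absent, with 0 to 5 counts per library for PECAM1 and 0 to 2 for CDH5. Trophoblast markers summed to between 61.9 and 69.1 CPM and to between 76.0 and 87.1 CPM, most of it TFAP2C (means of 57.3 and 69.7 CPM). The tested markers went both ways, with HLA-G at -4.20 and KRT7 at 1.23 (adjusted p = 1.9e-05, edgeR). HLA-G passed the filter only through the hESC libraries. TFAP2C was at 0.28 (edgeR adjusted p = 0.021, lost in 4 of 17 alternatives, among them without hESC replicate 1 or 2 or NMP-L replicate 2). CGA and GCM1, the other markers of that list, had 0 or 1 counts in every library. The part of any such cells in the results above was not tested.

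Of the members, 8 lie in the MHC region of chromosome 6. From HLA-F to TAPBP (chr6:29690552-33282061) the table held 185 genes, of which 118 were tested, with 17 higher, 47 lower and 54 not called. The share called was 54.2%, beside 55.8% over all tested genes. The share lower was 39.8%, beside 26.7%, and the 17 higher stand beside 29.1%. The median log2 fold change was -0.19. The region includes the 8 members and the HLA class II genes described above, so its counts do not stand apart from theirs. Among its genes are HLA-F, HLA-G, HLA-DRA and HLA-DMB, which passed the filter only through the hESC libraries. No test of the region was made.

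**Figure D5:**
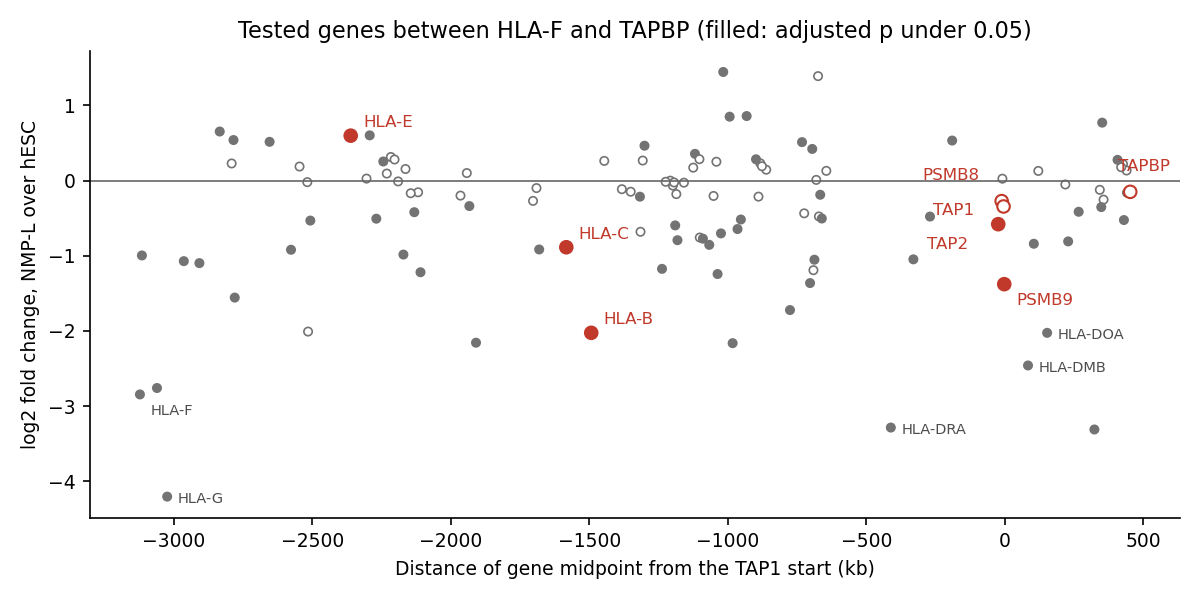
Log2 fold change, NMP-L over hESC, of the 118 tested genes of the MHC region by the distance of their midpoint from the start of TAP1 (kb), filled where the edgeR adjusted p was under 0.05. The 8 members in the region are red, and HLA-E (0.60) is the member above 0 while HLA-B (-2.03) and PSMB9 (-1.38) are the lowest of them.

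The labels were checked on marker genes. Counts of T (brachyury) were 0, 0 and 2 at day 0, against 537, 293 and 629 at day 3, and those of CDX2 were 0, 1 and 0, against 522, 326 and 607. NANOG fell by 2.59 and POU5F1 by 0.92 on the log2 scale (adjusted p = 2.9e-09 and 1.2e-06, edgeR), and POU5F1 was still at 1127 TPM in NMP-L cells. Libraries summed to 19454543 to 23036426 counts, with 6.12% to 6.75% of each in its 10 top genes.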

How the data were processed

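Polyadenylated RNA was sequenced as single reads of 76 bases in 3 hESC and 3 NMP-L libraries. For each gene the authors deposited the expected count from RSEM, not normalised between libraries, and beside them the authors deposited TPM, in which RSEM accounts for effective transcript length. The submitters' processing notes name cutadapt 1.9.1, STAR 2.5.2a, RSEM 1.3.0, DESeq2 1.12.3 and build hg19. The annotation is not given in the sources used here. Per-sample columns left unused numbered 0.

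Expected counts, rounded, entered edgeR 4.0.16 (R 4.3.3). The filterByExpr function, at a minimum count of 10, kept 15517 of 27672 genes. After TMM scaling the condition was tested by quasi-likelihood (glmQLFit, glmQLFTest), two-sided, with Benjamini-Hochberg adjustment over all tested genes and a threshold of 0.05. Standard errors were derived as |log2 fold change| over the root of the F statistic. Single values were also tested by exact permutation of log2(CPM + 0.1). Alternatives were other scalings and filters, DESeq2 1.42.0, limma 3.58.1 on log2(TPM + 0.1) and log2(TPM + 1), a replicate block, a lowess correction (span 0.3) for GC content and length, and each library left out in turn. The scripts were tested on simulated data. Depth limits precision for scarce genes, and 3 counts, or 0.130 to 0.154 per 1000000 counts, was taken as the floor, for counting error only.

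Of the gene symbols, 24876 matched GENCODE release 44 mapped to GRCh37, 1000 of them by an older symbol, from which positions, GC content and upstream windows were taken. The members and lists were chosen with earlier results of these data known. The text names the 9 members, a fixed set of pathway genes, up to 4 genes per list with the largest changes past the threshold, and the 5 genes most like B2M. Some genes of the lists are not reported here and were left out of the list counts and sums.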

Additional observations from a re-analysis of the deposited data

How the results depend on the processing

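The calls of HLA-B, HLA-C, HLA-E, TAP2 and PSMB9 held in 17 of 17 alternatives, with log2 fold changes between -2.10 and -1.85, -0.98 and -0.71, 0.54 and 0.69, -0.64 and -0.50, and -1.53 and -1.15. The number of members called was between 5 and 7, and TAPBP was called in 0 of 17. B2M became -0.32 with the GC and length correction, with or without the block, TAP1 -0.37 under DESeq2 and PSMB8 -0.25 with the correction, all now past the threshold. The edgeR fit of summed heavy chains gave -0.57 over 5 genes and -0.54 over the 3 member chains, past the threshold, which an exact test of 3 against 3 cannot reach. With at least 10 counts in every library 3 heavy chain genes were called, since HLA-F and HLA-G were not tested. The GC and length correction raised the called genes to 7 for the immunoproteasome list and 9 for the constitutive core (8 with the block added). It raised them over all 15517 tested genes too, from 8653 to 10102 (9605 with the block added).

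The replicate numbers did not pair the libraries (correlations of deviations of -0.32, -0.07 and -0.12, and 0 of 6 libraries correlating best with their own number). With the replicate block, 7560 genes were called instead of 8653, 5 of 9 members, 2 immunoproteasome genes, 3 constitutive core genes and 3 NK ligand genes.

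With each library left out in turn, the called genes ranged from 4 to 7 for peptide loading, 2 to 4 for the immunoproteasome list, 3 to 6 for the constitutive core, 3 to 5 for interferon signalling and 3 to 4 for NK ligands. Over all tested genes they ranged from 7255 to 8891, beside 8653 with every library. The log2 fold change ranged from -0.51 to -0.17 for TAP1 and from -0.38 to -0.18 for PSMB8. The log2 ratio of PSMB8 to PSMB5 ranged from -0.09 to 0.02, and that of PSMB10 to PSMB7 from -0.07 to 0.02, both crossing 0. The cause of these shifts was not tested.

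Scaling by library size alone, or testing TPM, moved the median log2 fold change of all genes from 0.03 to 0.10 and 0.12, so small differences such as those of B2M and TAPBP lie within the reach of the scaling. Counts limit HLA-G, HLA-F and PSMB9 in NMP-L cells. With 3 libraries per group from 1 line, nothing is known of other lines.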

Other observations

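The 5 tested genes whose log2 CPM followed B2M most closely over the 6 libraries were NSL1 (Pearson r 0.998), PRIM1 (0.994), CEBPZ (0.976), TMEM246 (0.971) and ACAT1 (0.969). They are given as a description, since 132 genes had an r over 0.9 and the points share libraries and depth. Their log2 fold changes lay between -0.21 and -0.11, beside -0.13 for B2M.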
